A study of Mus musculus with 2 samples.

Results

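The insulin-like growth factor (IGF) and insulin genes described here were the ligand Igf1, the receptors Igf1r and Insr, the receptor substrates Irs1 and Irs2, and the binding proteins Igfbp2, Igfbp3, Igfbp4, Igfbp5 and Igfbp7. They were chosen by their symbols with earlier results of these data known, so counts of them against all genes are descriptions only. All 10 were found once each among the 32285 genes of the count tables. Their RNA was measured by single-cell RNA sequencing in 2 libraries of mouse embryonic cells at E13.5, both labelled as pharyngeal arch and both made from the upper body above the liver of 3 pooled embryos. The control library came from Isl1-Cre;R26R-eYFP embryos and the mutant library from Isl1-Cre;R26R-eYFP;Pik3caH1047R embryos. In both, Cre made under the Isl1 locus switched on a yellow fluorescent protein in Isl1-expressing progenitors and in all their descendants, and cells were sorted for that protein. In the mutant library the same Cre also switched on an activating form of Pik3ca, the catalytic p110α subunit of phosphatidylinositol 3-kinase (PI3K), so the allele could be active in each sorted cell type and not in endothelium alone. Each genotype had 1 library, so no test between genotypes was possible, and all intervals below cover counting error only.

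IGF1 is a secreted growth factor that binds the tyrosine kinase receptor IGF1R, and insulin binds the closely related insulin receptor. Both receptors phosphorylate the substrates IRS1 and IRS2, which recruit PI3K, so these genes lie directly upstream of the kinase that the mutant allele activates. IGF-binding proteins hold IGFs outside the cell, extend their life and release or withhold them from the receptor, and IGFBP7 is a relative that binds IGFs only weakly and is deposited around vessels.

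After the filter on cells (more than 2000 and fewer than 9000 genes, and under 10% mitochondrial counts), 2783 of 4505 control cells and 3489 of 5357 mutant cells were kept, with medians of 20412 and 16839 unique molecular identifiers (UMIs) per cell. The 2 libraries shared 28 cell barcodes as deposited and 12 after the filter. Judged from Xist and the Y-linked genes, the control library held 95.5% female-like cells and 1 male-like cell, while the mutant library held 33.6% female-like and 53.3% male-like cells. The pools therefore differed in sex as well as in genotype. Hepatoblast-like cells (47) were found in the mutant library only, so the libraries also differed in the cell types they held. In single classes, 32 ratios passed 1.5-fold with an interval excluding 0. Of these, 30 also passed 1.5-fold in the same direction in female-like cells alone, whatever the interval there. Among the 30, Igf1r, Insr and Igfbp2 in cardiomyocyte-like cells rested on 11 control and 12 mutant female-like cells. In that class 43 of 54 control and 89 of 184 mutant cells could not be assigned a sex. The 11 female-like control cells held 38 of its 43 control Igf1r UMIs, so they may not stand for the class. The Igfbp2 interval in the female-like cells of that class included 0 (-0.18 to 1.95). The other 2 (Igfbp4 in neuron-like and Igf1 in epithelium-like cells) are described where they occur. Female-like values are given for EC-like cells and wherever they end a count or differ by more than 1.5-fold. Pik3ca itself was counted at 46.6 CPM (the gene's UMIs per 1000000 UMIs of the same cells) in control and 45.3 CPM in mutant endothelial cell (EC)-like cells, and the counts do not separate the transgene from the endogenous gene. Of 16 clusters, 12 fell into 7 classes with at least 50 cells in each library: EC-like (147 control and 694 mutant cells, all 15 of 15 EC markers raised), mesenchyme-like (953 and 656), branchial muscle-like (892 and 843), cardiomyocyte-like (54 and 184), neuron-like (192 and 472), epithelium-like (211 and 302) and mesothelium-like (70 and 67). All listed markers were also raised in cardiomyocyte-like (12), epithelium-like (14) and mesothelium-like cells (9). Neuron-like clusters c5, c10 and c15 had 11, 12 and 11 of 13 raised. Mesenchyme-like clusters c0 and c4 had 13 and 7 of 16. Branchial muscle-like clusters c1, c7 and c8 had 7, 6 and 9 of 15. The 10 genes were left out of the clustering.

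On the mouse genome build GRCm38, Igfbp2 (chromosome 1, 72824503 to 72852474, plus strand) and Igfbp5 (chromosome 1, 72857932 to 72874884, minus strand) lay tail to tail with 5.46 kb between them. Igfbp3 (chromosome 11, 7206086 to 7213923, minus strand) lay 3.54 kb from Igfbp1, and Igfbp4 stood elsewhere on the same chromosome (99041244 to 99054392, plus strand). Igf1 (chromosome 10, 87858265 to 87937042, plus strand) overlapped the antisense gene Igf1os, and Igfbp7 (chromosome 5, 77349240 to 77408041, minus strand) overlapped Polr2b and Gm34648 on the opposite strand. Igf1r covered 280.8 kb of chromosome 7 (67952827 to 68233668, plus strand) and Insr 157.6 kb of chromosome 8 (3122061 to 3279617, minus strand). Irs1 stood on chromosome 1 (82233101 to 82291416, minus strand) and Irs2 on chromosome 8 (10984681 to 11008458, minus strand).

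The bases just upstream of the start sites of Igfbp2, Igfbp3 and Igfbp7 are shown because these binding proteins had the largest differences between libraries in EC-like cells, Igfbp2 and Igfbp3 toward the mutant and Igfbp7 toward the control. Each run holds the 250 bases before the start site, read 5′ to 3′ on the gene's strand from RefSeq promoters of GRCm38.p6, in which windows for 9 of the 10 genes were found (for Igfbp2, which has 2, the one at the annotated gene start is shown). Capitals mark the core letters ACGTG and GCGTG, on either strand, to which hypoxia-inducible factors can bind. The runs lie at chr1:72824230-72824479 for Igfbp2, chr11:7213924-7214173 for Igfbp3 and chr5:77408046-77408295 for Igfbp7.
Igfbp2: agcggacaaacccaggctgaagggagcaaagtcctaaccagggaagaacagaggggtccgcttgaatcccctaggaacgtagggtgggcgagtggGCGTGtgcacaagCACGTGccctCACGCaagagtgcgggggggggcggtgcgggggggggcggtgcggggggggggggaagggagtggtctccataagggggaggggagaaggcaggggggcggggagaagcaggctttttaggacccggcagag
Igfbp3: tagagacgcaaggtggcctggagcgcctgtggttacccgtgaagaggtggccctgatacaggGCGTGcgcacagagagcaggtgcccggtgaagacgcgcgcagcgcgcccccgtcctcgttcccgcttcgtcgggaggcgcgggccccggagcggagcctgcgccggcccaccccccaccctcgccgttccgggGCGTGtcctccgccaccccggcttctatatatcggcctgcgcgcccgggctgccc
Igfbp7: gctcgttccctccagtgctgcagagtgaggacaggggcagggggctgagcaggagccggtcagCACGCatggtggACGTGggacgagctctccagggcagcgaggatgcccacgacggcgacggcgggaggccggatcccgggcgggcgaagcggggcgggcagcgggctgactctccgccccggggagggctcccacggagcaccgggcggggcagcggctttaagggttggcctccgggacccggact
Over the whole 300-base windows, the Igfbp2 window held ACGTG at 2 overlapping positions, which together read CACGTG on both strands, and GCGTG at 2. The Igfbp3 window held ACGTG nowhere and GCGTG at 2 positions, and the Igfbp7 window held each at 1. Such matches are common, since 19.6% of all 32851 windows held ACGTG and 32.4% held GCGTG, and a match is not a binding site. Among the other members, the Irs1 and Irs2 windows held both CACGTG and GCGTG, and those of Igf1 and Igf1r held GCGTG. The second Igfbp2 window also held GCGTG. Only the Igfbp4 and Igfbp5 windows held neither ACGTG nor GCGTG. The windows of Igfbp2, Igfbp3 and Igfbp7 had 67%, 71.7% and 73.3% GC, against a median of 52.7% over all windows. The shares over all windows are thus not matched for GC. The FOXO core GTAAACA, present in 3.65% of all windows, was in none of the windows of the 9 genes.

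In EC-like cells, 1 ligand and 2 binding proteins were higher in the mutant library and 1 binding protein was lower, while both receptors were moderately lower. Igf1 stood at 146 CPM (95% interval 133 to 159, 472 UMIs) in control and 248 CPM (240.0 to 257, 3435 UMIs) in mutant cells, a log2 ratio of mutant over control of 0.77 (0.63 to 0.91). Igfbp3, a major carrier of IGFs, stood at 315 CPM in control and 859.6 CPM in mutant cells (log2 ratio 1.45, 1.35 to 1.54), the highest of the 10 genes in that class by ratio. Igfbp2, another carrier, stood at 61.4 and 146 CPM (log2 ratio 1.25, 1.04 to 1.46). Igfbp7 went the other way, from 208 CPM in control to 67.0 CPM in mutant cells (log2 ratio -1.63, -1.78 to -1.49). The shares of cells with a UMI moved alike when each cell was thinned to 5000 UMIs, from 33.3% to 52.3% for Igf1, 22.9% to 42.7% for Igfbp2, 36.1% to 72.1% for Igfbp3 and 31.9% to 18.0% for Igfbp7 (unthinned, 58.5% to 72.5%, 50.3% to 67.3%, 61.2% to 82.7% and 48.3% to 30.7%). No class is known to lack these secreted proteins, so classes with low levels are given for comparison. Thinned alike, Igf1 had a UMI in 4.50% of control and 3.90% of mutant epithelium-like cells (unthinned 7.11% and 7.62%, at medians of 15632 and 15679 UMIs, against 20203 and 17038 in EC-like cells). In cardiomyocyte-like cells the thinned shares were 9.26% and 12.9% for Igfbp2 and 3.70% and 5.62% for Igfbp3, and in epithelium-like cells they were 1.5% and 1.42% for Igfbp7. How much of these low shares is free RNA was not tested. The 5 cells with the most Igfbp7 held 47.5% of its UMIs in control EC-like cells, and the 5 with the most Igfbp3 held 40.2%, so few cells weigh heavily on these control levels.

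The receptors and substrates in EC-like cells were lower or barely detected. Igf1r stood at 180.4 CPM in control and 122 CPM in mutant cells (log2 ratio -0.57, -0.70 to -0.43), and Insr at 72.5 and 49.4 CPM (-0.55, -0.77 to -0.33), both just inside a 1.5-fold difference, which is 0.58 on the log2 scale. Irs1 had 6 UMIs in control and 34 in mutant cells, and Irs2 had 7 and 43, which leaves levels of 1.85 and 2.46 CPM for Irs1 and 2.16 and 3.11 CPM for Irs2. EC-like cells thus had the lowest level of both substrates among the 7 classes, although the intervals of Irs2 overlapped those of cardiomyocyte-like cells in both libraries. Igfbp4, a carrier best known for its inhibition of IGF action, stood at 944 and 761 CPM (-0.31, -0.37 to -0.25). Igfbp5, a carrier that binds extracellular matrix, stood at 99.6 and 115 CPM (0.21, 0.03 to 0.39), and 5 of 147 control cells held 76.2% of its control UMIs.

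Counted by a fixed size rule, at least 1.5-fold in either direction among genes with at least 50 UMIs over both libraries, 3 of the 9 genes measured well enough in EC-like cells were higher in the mutant (Igf1, Igfbp2 and Igfbp3, of which Igf1 fell inside 1.5-fold in G1 cells alone, at a log2 ratio of 0.50), against 11.6% of all 12030 genes. Lower by that rule was 1 of 9 (Igfbp7), against 12.7% of all genes. The median log2 ratio was 0.21 over these 9 genes and -0.07 over all genes. Summed markers of mesenchyme, whose own cells are rich in Igf1, stood at 646 CPM in control and 853 CPM in mutant cells. Of the 16 markers, 1 (Dpt) was at 0 in both, and the part of these markers in the Igf1 difference was not tested.

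**Figure D1:**
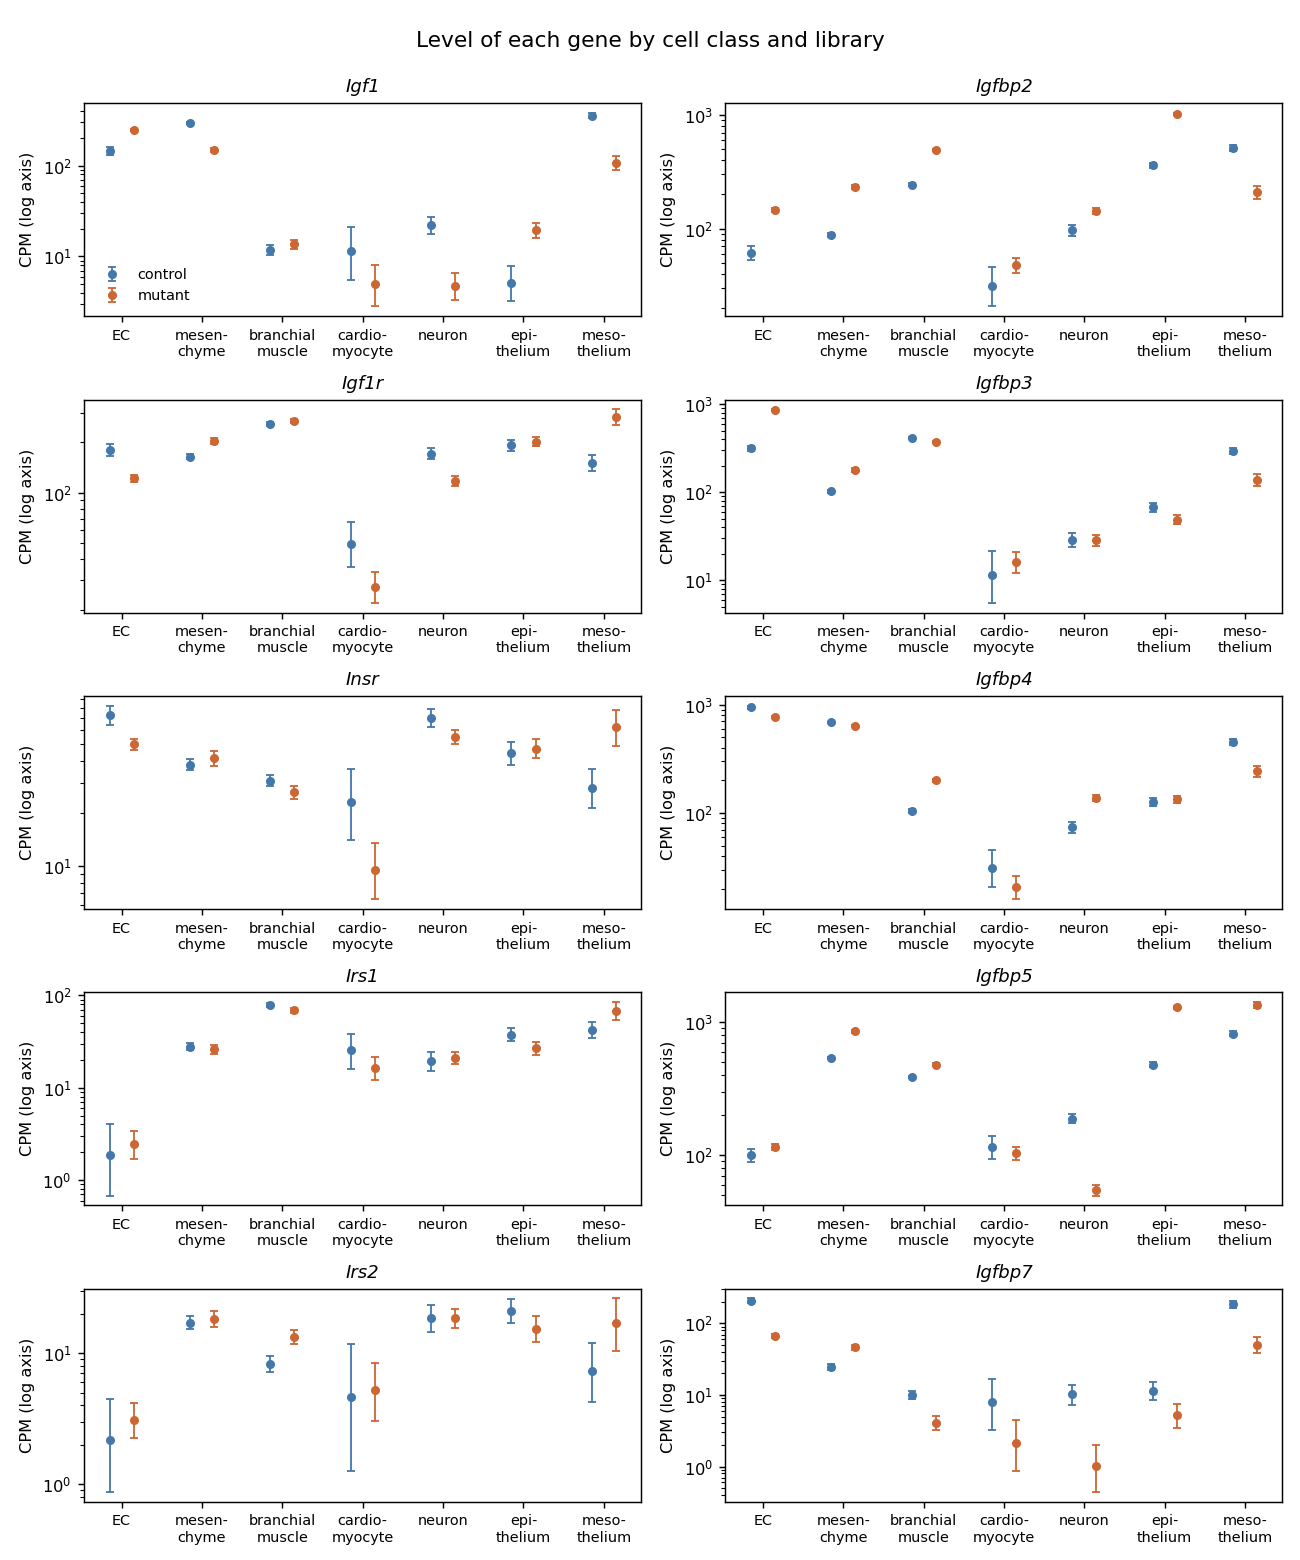
Level of each of the 10 genes in CPM (log axis) in 7 cell classes, control in blue and mutant in orange; points are sums over all cells of a class and bars are 95% Poisson intervals for counting error. In EC-like cells Igfbp3 stands at 315 CPM in control and 859.6 CPM in mutant, Igfbp7 at 208 and 67.0 CPM, and Irs1 and Irs2 lie below 4 CPM.

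The 4 largest differences in EC-like cells were also present when the sexes were matched. In female-like cells alone (132 control and 233 mutant cells), Igf1 stood at 140.1 and 281 CPM (log2 ratio 1.01, 0.85 to 1.17), Igfbp2 at 63.2 and 146 CPM (1.20, 0.97 to 1.44), Igfbp3 at 329 and 706 CPM (1.10, 1.00 to 1.21) and Igfbp7 at 200.3 and 75.8 CPM (-1.40, -1.59 to -1.21). Igfbp5 changed direction there, with 107 CPM in control and 82.1 CPM in mutant cells (-0.38, -0.60 to -0.16). Igf1r in female-like cells passed 1.5-fold, at 189.96 and 119 CPM (-0.67, -0.84 to -0.50). Within the mutant library, 381 male-like EC-like cells had more Igfbp3 than the female-like ones, 947 against 706 CPM, and more Igfbp5, 122 against 82.1 CPM. Male-like cells had less Igf1 (225 against 281 CPM) and less Igfbp4 (699 against 853 CPM), while Igfbp2 was close (141 against 146 CPM, log2 ratio male over female -0.04, -0.18 to 0.10). These differences within 1 library were smaller than those between libraries for Igf1, Igfbp2, Igfbp3 and Igfbp7. For Insr, Igfbp4 and Igfbp5 they were larger than the female-like differences between libraries. The log2 ratios were -0.43 against -0.36 for Insr, -0.29 against -0.16 for Igfbp4 and 0.58 against -0.38 for Igfbp5. With 3 embryos in the mutant pool, each sex there came from few embryos.

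**Figure D2:**
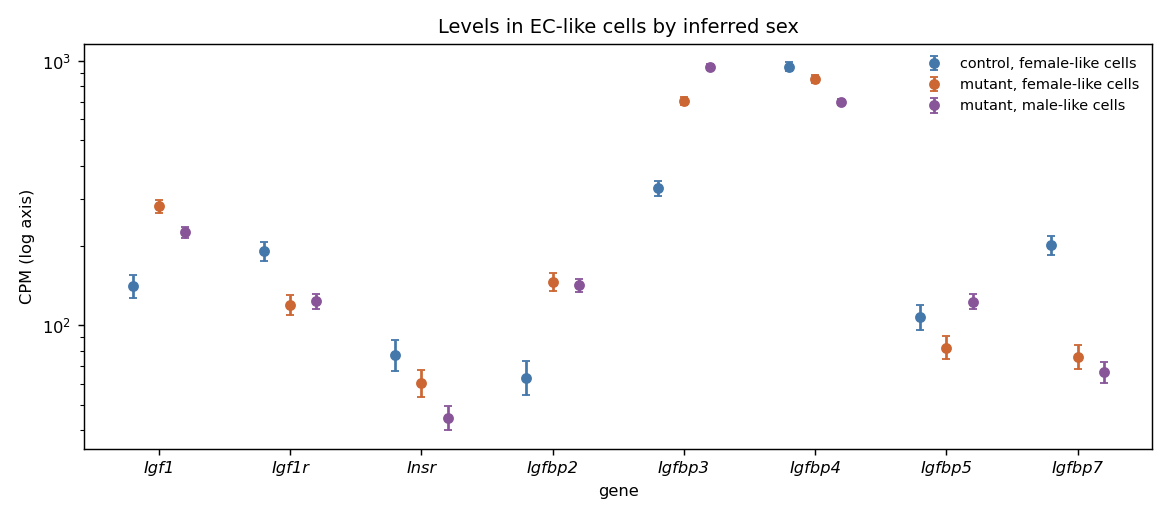
Levels in EC-like cells (CPM, log axis) of the 8 genes with more than 10 UMIs in each library, in female-like control cells (blue), female-like mutant cells (orange) and male-like mutant cells (purple), with 95% Poisson intervals. Both mutant groups lie above control for Igf1, Igfbp2 and Igfbp3 and below it for Igf1r, Insr, Igfbp4 and Igfbp7, and for Igfbp5 the mutant groups lie on opposite sides.

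EC-like cells were split into 8 clusters, 3 of which held at least 20 cells of each library. Cluster e0 (40 control and 131 mutant cells) was led by Gimap4, Fam167b, Jarid2 and Rgcc, then by the cell-cycle genes Cdc20, Cenpa and Ccnb2. There Igfbp3 stood at 184 and 655 CPM, Igfbp2 at 65.6 and 149 CPM, Igf1 at 120 and 208 CPM, and Igfbp7 at 107 and 26.2 CPM. The part of the cell cycle in the e0 values was not tested. In cluster e2, led by Adamts18 and Ccdc3 (22 and 118 cells), Igf1 stood at 175 and 515 CPM, Igfbp3 at 156 and 775 CPM, Igfbp2 at 66.7 and 181 CPM, and Igfbp7 at 273 and 53.9 CPM. Both clusters thus showed the directions of the whole class for these 4 genes.

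Cluster e3, led by Eln and Fbln5, with 6 of 10 arterial and 6 of 8 endocardial markers raised (22 and 88 cells), differed. Its Igfbp3 was 211 and 212 CPM (log2 ratio 0.01, -0.35 to 0.39) and its Igf1 238 and 187 CPM (-0.35, -0.70 to 0.01). Igfbp5 in e3 was 682 CPM in control and 146 CPM in mutant cells (-2.23, -2.49 to -1.96), but 5 of the 22 control cells held 94.7% of its 246 UMIs. In e0 it was 13.54 and 54.2 CPM. Of the marker lists of other cell types, 8 of 16 mesenchyme and 6 of 12 cardiomyocyte markers were also raised in e3, and their part in its values was not tested. Whether the ratios differ between clusters was not tested.

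The other clusters had fewer than 20 control cells, so their values are given without a ratio. In lymphatic EC-like cluster e7 (8 of 8 lymphatic markers raised, 19 and 30 cells), Igfbp3 stood at 24.7 CPM in control and 184 CPM in mutant cells, Igfbp7 at 36.0 and 50.9 CPM, and Igfbp2 had 0 UMIs in control against 40.2 CPM in mutant cells. In cluster e5, led by Slc38a5, Spock2 and Slco1c1 (7 of 10 arterial markers raised, 19 and 48 cells), Igfbp3 was already high in control at 1104 CPM. It stood at 1596 CPM in mutant cells. Cluster e3, with 6 of 10 arterial markers raised, had 211 CPM of Igfbp3 in control. Cluster e5 had the highest Igfbp7, 618 and 230.4 CPM, and the lowest Igf1, 64.5 and 21.4 CPM. Its control Igf1 interval overlapped that of e1. Cluster e1, led by Trib3, Slc2a3, Pgf and Hilpda, held 8 control and 153 mutant cells, with 806 CPM of Igfbp3 in control and 1507 CPM in mutant cells. Without e1, the EC-like ratios were 1.18 for Igfbp3, 1.11 for Igfbp2, 0.93 for Igf1 and -1.82 for Igfbp7, an alternative chosen after seeing the data. Cluster e4, led by BC025920, Kirrel3 and Nlgn1 (12 and 81 cells), had the highest control Igf1r and Insr of the 8 clusters. Igf1r stood there at 537 and 278 CPM and Insr at 269 and 119 CPM. In the mutant library e5 had 331 CPM of Igf1r, and the intervals of the 2 clusters overlapped. The e4 cells were shallow, with 805413 UMIs in 81 mutant cells against 1587405 in the 88 of e3. The part of depth in the e4 levels was not tested. Cluster e6 (5 and 45 cells), with 8 of 15 branchial muscle markers raised, held 24 of the 34 Irs1 UMIs of mutant EC-like cells.

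**Figure D3:**
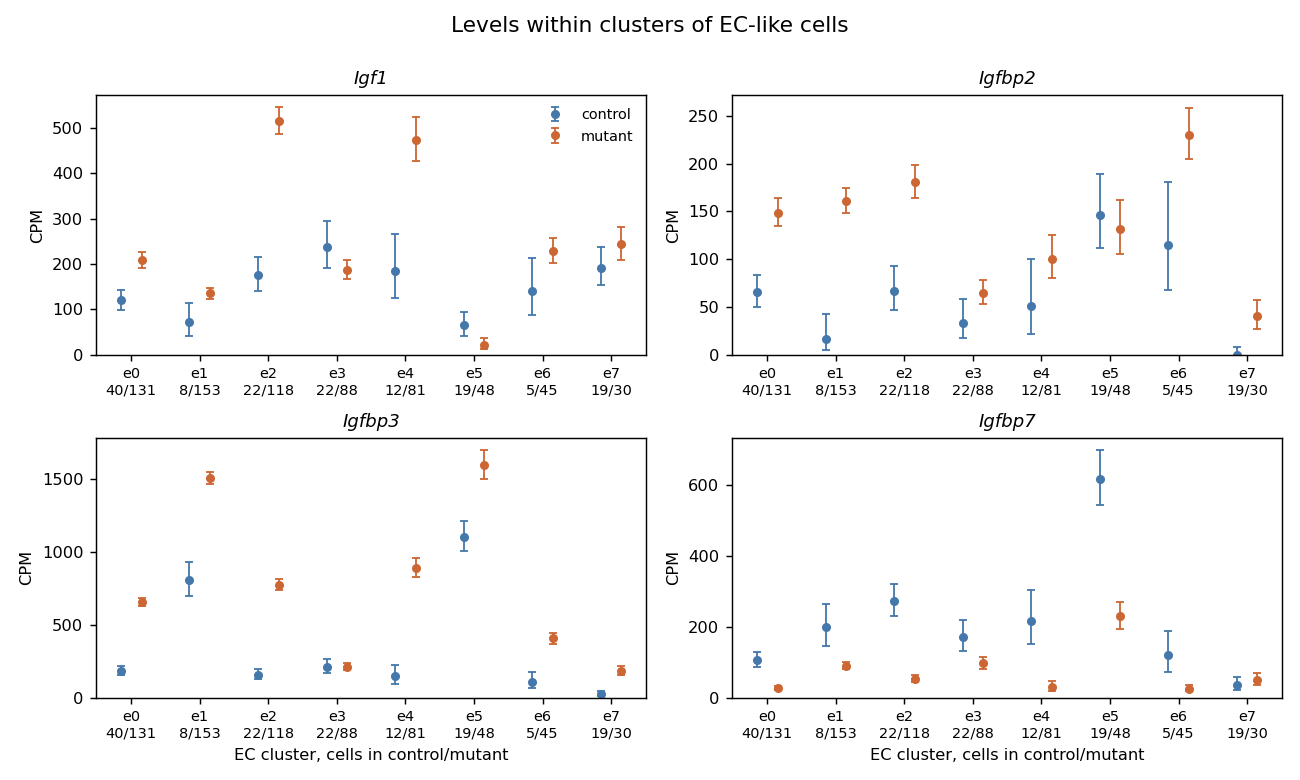
Levels of Igf1, Igfbp2, Igfbp3 and Igfbp7 (CPM, linear axes) in 8 clusters of EC-like cells, control in blue and mutant in orange, with 95% Poisson intervals and the number of cells of each library under each cluster. Igfbp7 lies lower in the mutant in every cluster but e7, and Igfbp3 lies higher in every cluster but e3, where the libraries overlap.

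Of the 32 other genes of the pathway, 21 reached 50 UMIs over both libraries in the EC-like class. Of these, 3 were at least 1.5-fold higher and 2 lower in the mutant, against 11.6% and 12.7% of all genes. The median log2 ratio of the 21 was 0.15. Stanniocalcins Stc1 and Stc2, inhibitors of the proteases that cleave IGF-binding proteins, were the highest, Stc1 at 18.8 CPM in control and 67.6 CPM in mutant cells (log2 ratio 1.84, 1.47 to 2.24) and Stc2 at 7.71 and 45.7 CPM (2.57, 1.99 to 3.21). Stc2 was itself a leading gene of cluster e1, whose 153 mutant cells had 381 UMIs of Stc2 and 481 of Stc1, against 8 control cells. Outside e1, Stc2 stood at 6.25 and 32.6 CPM in e0, but at 21.0 and 22.4 CPM in e2 (0.10, -0.86 to 1.19). In e3 it had 3 and 7 UMIs (8.32 and 4.41 CPM). Stc1 was higher in the mutant in e0 (12.5 and 40.7 CPM) and e2 (9.53 and 59.1 CPM). The adaptor Shc1 stood at 57.0 and 104.9 CPM (0.88, 0.66 to 1.11). Grb14, an adaptor that inhibits the insulin receptor, was lowest, at 26.8 CPM in control and 3.69 CPM in mutant cells (-2.86, -3.39 to -2.35). The docking protein Gab1 stood at 74.9 and 49.7 CPM (-0.59, -0.81 to -0.38). Igf2, the main embryonic ligand, was just inside the limit at 967 and 646 CPM (-0.58, -0.64 to -0.52), and Ins1 and Ins2 had 0 and 1 UMIs in all EC-like cells.

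Among the 7 classes compared, Igf1 was highest in mesothelium-, mesenchyme- and EC-like cells (smooth muscle or mural-like cells, too few to compare, were higher still). In control, its level fell in the order mesothelium-like (356 CPM, 331 to 382), mesenchyme-like (296 CPM, 288 to 304), EC-like (146 CPM) and neuron-like cells (22.0 CPM), with no overlap of neighbouring intervals down to neuron-like cells. Branchial muscle-like (11.7 CPM), cardiomyocyte-like (11.5 CPM) and epithelium-like cells (5.16 CPM) followed, each overlapping its neighbour. In the mutant library the first 3 classes stood in another order, EC-like (248 CPM), mesenchyme-like (150.3 CPM) and mesothelium-like (107 CPM). The EC-like class was thus higher and the other two lower in the mutant, with log2 ratios of -0.98 (-1.06 to -0.90) in mesenchyme-like and -1.73 (-2.02 to -1.46) in mesothelium-like cells. Female-like mesothelium-like cells alone had 362 CPM in control and 30.4 CPM in mutant (-3.58, -4.58 to -2.73), against 142 CPM in male-like mutant cells. In neuron-like cells Igf1 stood at 22.0 and 4.72 CPM (-2.22, -2.82 to -1.65). There the 16 mesenchyme markers summed to 591 CPM in control and 119 CPM in mutant cells, and 5 control cells held 70.9% of the Igf1 UMIs. Whether those 5 cells carried the mesenchyme markers, and the part of mesenchymal RNA in this ratio, was not tested. In epithelium-like cells Igf1 stood at 5.16 and 19.5 CPM (1.92, 1.23 to 2.67), but 5 of 302 mutant cells held 76.2% of the UMIs, and female-like cells alone had 5.34 CPM in control and 4.03 CPM in mutant against 32.9 CPM in male-like mutant cells.

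Igf1r lay at 151 to 255 CPM in the control library apart from cardiomyocyte-like cells (49.6 CPM), a 5.14-fold range over the classes. Branchial muscle-like cells were highest there, and the intervals of neighbouring classes overlapped from epithelium-like (191 CPM) down to mesothelium-like cells (151 CPM). In the mutant library Igf1r varied 10.3-fold, from 282 CPM in mesothelium-like to 27.4 CPM in cardiomyocyte-like cells, with EC-like cells at 122 CPM. Between libraries Igf1r reached 1.5-fold in 2 of 7 classes. It was higher in the mutant in mesothelium-like cells, 151 and 282 CPM (log2 ratio 0.90, 0.68 to 1.13), and lower in cardiomyocyte-like cells, 49.6 and 27.4 CPM (-0.86, -1.40 to -0.30), where 5 of 54 control cells held 93.0% of its 43 UMIs and the few female-like cells alone gave -2.48 (-3.88 to -1.30). Insr varied 3.14-fold over the classes of the control library, with EC-like (72.5 CPM) and neuron-like cells (70.1 CPM) at the top and overlapping. It too was higher in mutant mesothelium-like cells, 28.1 and 62.0 CPM (1.14, 0.63 to 1.66), and lower in cardiomyocyte-like cells, 23.1 and 9.54 CPM (-1.28, -2.13 to -0.39), where 5 of 54 control cells held 85.0% of its 20 UMIs.

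The substrates differed in where they were found. Irs1 was highest in branchial muscle-like cells, at 78.2 CPM in control and 68.5 CPM in mutant, followed by mesothelium-like cells at 42.3 and 67.9 CPM. Within branchial muscle-like cells, cluster c7, led by Pax7, Car9 and Lama2, the last a laminin gene (151 control and 182 mutant cells), had 233 and 147 CPM of Irs1 and 842 and 749.7 CPM of Igf1r, against 70.0 and 58.2 CPM of Irs1 and 197 and 224 CPM of Igf1r in the larger cluster c1. The c7 cells were shallow, with a median of 0.478 of the control library's median UMIs per cell and 0.443 of the mutant's. Irs2 lay between 2.16 and 21.1 CPM in every class of the control library, and of the 5 classes with at least 50 UMIs it reached 1.5-fold only in branchial muscle-like cells, at 8.34 and 13.4 CPM (log2 ratio 0.68, 0.41 to 0.96).

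**Figure D4:**
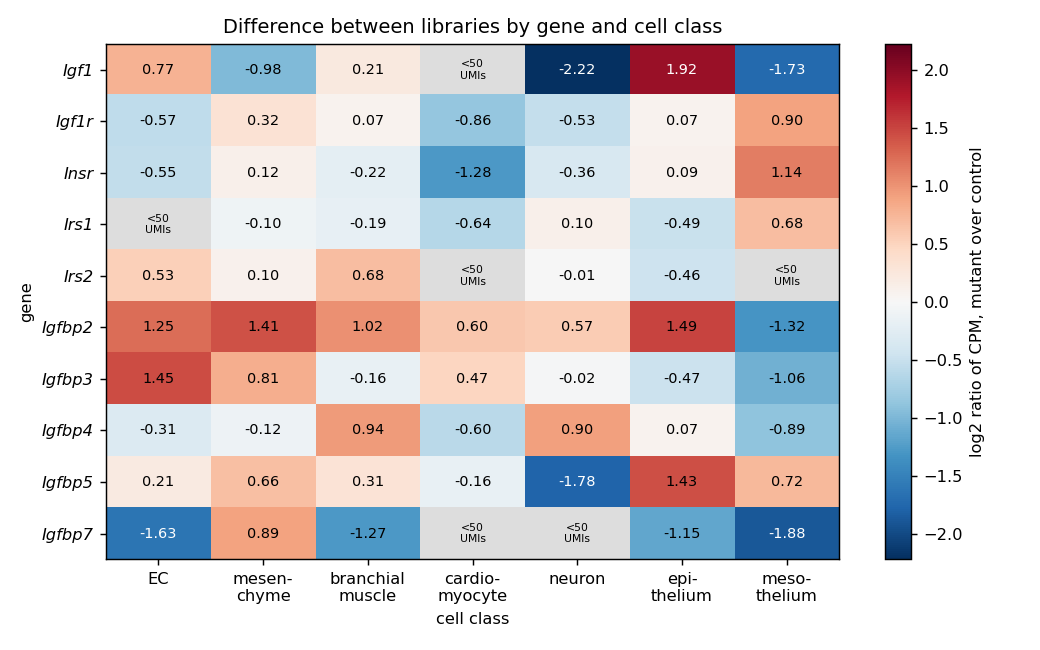
Log2 ratio of CPM, mutant over control, for each gene (rows) in each class (columns), red higher and blue lower in the mutant; grey cells had fewer than 50 UMIs over both libraries. The Igfbp2 row is red in 6 of 7 classes and blue in mesothelium-like cells, and the Igfbp7 row is blue in 4 of the 5 classes with a value.

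Igfbp2 was higher in the mutant in 6 of 7 classes and lower in 1. It stood at 362 and 1021 CPM in epithelium-like cells (log2 ratio 1.49, 1.41 to 1.58), 243 and 495 CPM in branchial muscle-like cells (1.02, 0.98 to 1.07), 87.6 and 234 CPM in mesenchyme-like cells (1.41) and 31.2 and 47.4 CPM in cardiomyocyte-like cells (0.60, 0.01 to 1.25). Neuron-like cells, at 96.2 and 143 CPM (0.57, 0.40 to 0.74), did not reach 1.5-fold. Mesothelium-like cells had 518 CPM in control, the highest class there, and 208 CPM in the mutant (-1.32, -1.52 to -1.11), and female-like cells alone 513 and 108 CPM (-2.25). The branchial muscle-like ratio was largest in cluster c8, led by Myh3 and Tnnc2, sarcomere genes of differentiating muscle, at 124 and 567 CPM (2.19, 2.05 to 2.34), against 276 and 485 CPM in c1.

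Igfbp3 was highest in branchial muscle-like cells in control (412 CPM), followed by EC-like (315 CPM) and mesothelium-like cells (291 CPM), which overlapped, and EC-like cells were highest in the mutant (859.6 CPM). It reached 1.5-fold in 2 classes besides the EC-like one. Mesenchyme-like cells had 102 and 179 CPM (log2 ratio 0.81, 0.72 to 0.90), and mesothelium-like cells had 291 and 139 CPM (-1.06, -1.32 to -0.81). In branchial muscle-like cells Igfbp3 stood at 412 and 368 CPM (-0.16, -0.21 to -0.12). In female-like cells alone Igfbp3 also passed 1.5-fold, lower in the mutant, in neuron-like cells (28.5 and 13.9 CPM, -1.03, -1.52 to -0.56, against -0.02 in all cells) and in epithelium-like cells (65.1 and 31.2 CPM, -1.06, -1.48 to -0.65, against -0.47).

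Igfbp4 was highest in EC-like cells of both libraries, with mesenchyme-like cells next at 685 and 631 CPM. It was higher in the mutant in branchial muscle-like cells, 104 and 199.7 CPM (log2 ratio 0.94, 0.87 to 1.02), and in neuron-like cells, 73.4 and 137 CPM (0.90, 0.71 to 1.10). In female-like neuron-like cells alone the values were 72.9 and 107 CPM, inside 1.5-fold (0.56, 0.34 to 0.78), and male-like mutant cells had 160.1 CPM. Among neurons the difference lay in cluster c10, led by Ppp1r1c and Neurod1, with 104.8 and 258 CPM (1.30, 1.07 to 1.54). Cluster c5, led by Igfbpl1 and Otp, had 53.7 and 61.0 CPM (0.19, -0.17 to 0.55). The difference between these clusters was not tested. Mesothelium-like cells had 448 and 241 CPM (-0.89, -1.09 to -0.70).

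Igfbp5 was strongest in mesothelium-like cells of both libraries, at 821 and 1349 CPM (log2 ratio 0.72, 0.62 to 0.82). Epithelium-like cells had 479.7 and 1294 CPM (1.43, 1.36 to 1.51), and in the mutant their interval overlapped that of mesothelium-like cells. Igfbp2 and Igfbp5, the neighbours on chromosome 1, were thus both more than 2-fold higher in mutant epithelium-like cells, and stayed so in female-like cells alone, at 371 and 924 CPM for Igfbp2 (1.32) and 479.9 and 1124 CPM for Igfbp5 (1.23). In the same cells summed mesothelium markers stood at 125 CPM in control and 369 CPM in the mutant, and smooth muscle and mural markers at 90.7 and 592 CPM, and their part in these values was not tested. In mesothelium-like cells the neighbours went opposite ways. Neuron-like cells had 188 and 54.7 CPM of Igfbp5 (-1.78, -1.96 to -1.61), in the same cells in which the mesenchyme markers were lower. Neural crest and Schwann precursor markers there stood at 475 CPM in control and 114 CPM in mutant cells, and the part of either list was not tested.

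Igfbp7 was lower in the mutant in 4 of the 5 classes in which it had at least 50 UMIs. It stood at 184 and 50.1 CPM in mesothelium-like cells (log2 ratio -1.88, -2.30 to -1.48), 9.91 and 4.10 CPM in branchial muscle-like cells (-1.27, -1.66 to -0.90) and 11.6 and 5.20 CPM in epithelium-like cells (-1.15, -1.88 to -0.45, but 0.36 in cells in G1 alone and -2.18 in female-like cells alone), beside the EC-like cells above. Mesenchyme-like cells were the exception, at 24.8 and 46.1 CPM (0.89, 0.71 to 1.08).

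That exception depended on which mesenchyme-like cells were counted. Cluster c0, led by Angptl1, Twist1 and Prrx1 (589 control and 530 mutant cells), had 32.4 CPM of Igfbp7 in control and 12.3 CPM in the mutant (log2 ratio -1.40, -1.73 to -1.07). Cluster c4, led by Adh1, Wnt2 and Hoxb5 with Tbx4 and Rgs5 (364 and 126 cells), had 16.0 and 143 CPM (3.16, 2.88 to 3.44). Igf1 in c0 was 515 and 153 CPM (-1.75, -1.84 to -1.66) and in c4 40.7 and 141 CPM (1.80, 1.59 to 2.01), so the clusters went opposite ways for both genes. Igfbp2 was higher in the mutant in both, at 156 and 288 CPM in c0 and 7.84 and 77.3 CPM in c4. Igfbp3 and Igfbp5 in c0 stayed under 1.5-fold (0.32 and 0.22). Summed smooth muscle and mural markers in mesenchyme-like cells stood at 393 CPM in control and 1173 CPM in the mutant, and their part in the c4 values was not tested. With finer clusters (resolution 0.8), those led by Adh1 and Wnt2 held 260 control and 48 mutant cells, and 82 and 11 cells. Mutant mesenchyme-like cells then numbered 601, not 656, and mutant EC-like cells 750, not 694. The mutant cells of c4 may thus not all be mesenchyme, and their part in its values was not tested.

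**Figure D5:**
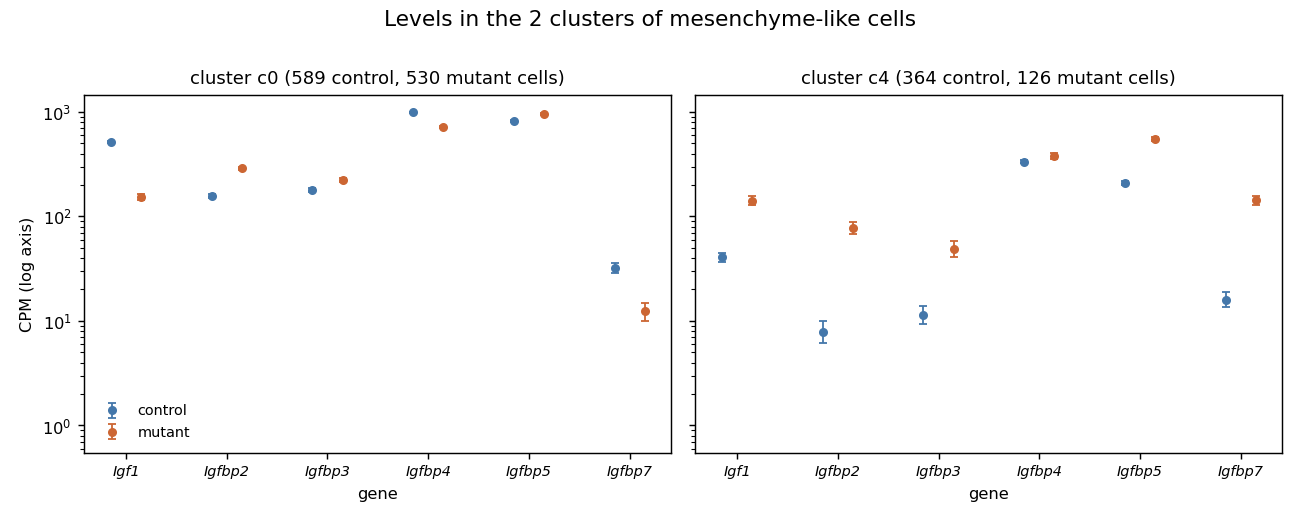
Levels (CPM, log axis) of Igf1 and 5 binding proteins in clusters c0 (left) and c4 (right) of mesenchyme-like cells, control in blue and mutant in orange, with 95% Poisson intervals. Igf1 and Igfbp7 lie lower in the mutant in c0 and higher in c4, and Igfbp2 lies higher in both.

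Mesothelium-like cells stood apart, with 4 of 9 genes at least 1.5-fold higher (Igf1r, Insr, Irs1 and Igfbp5) and 5 lower (Igf1, Igfbp2, Igfbp3, Igfbp4 and Igfbp7), against 20.4% and 12.6% of all genes. These cells numbered 70 and 67, their median UMIs per cell were 28114 in control and 14596 in the mutant, and Pik3ca was also higher there (18.9 and 44.2 CPM). Summed markers of other types were higher there too, at 167 and 495 CPM for branchial muscle, 609 and 1601 CPM for cardiomyocytes, 130 and 577 CPM for smooth muscle and mural cells and 176 and 347 CPM for epithelium, and their part in the counts was not tested. Of the 9 genes, Igf1r (0.50), Insr (0.43), Irs1 (0.34), Igfbp3 (-0.20) and Igfbp4 (-0.54) came inside 1.5-fold under at least 1 other way of processing. The corresponding counts were 4 higher and 1 lower of 10 in mesenchyme-like cells (10.9% and 8.79% of all genes), 3 and 1 of 10 in branchial muscle-like cells (13.1% and 7.94%), 3 and 1 of 10 in epithelium-like cells (8.52% and 9.33%), 1 and 2 of 9 in neuron-like cells (5.94% and 15.3%) and 1 and 4 of 7 in cardiomyocyte-like cells (11.8% and 16.0%). In cardiomyocyte-like cells the ratios of Irs1 and Igfbp4 had intervals that included 0. In the 11 control and 12 mutant female-like cells of that class, Irs1 had 0 and 5 UMIs (0 and 20.7 CPM). Igfbp4 there stood at 63.7 and 62.1 CPM (-0.04, -1.17 to 1.10), so neither gene stayed 1.5-fold lower. Igfbp3, not counted in all cells (0.47), had 9 and 0 UMIs in these female-like cells (38.2 and 0 CPM).

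Among the other pathway genes, Stc2 was higher in the mutant in all 6 classes in which it had at least 50 UMIs, with log2 ratios from 2.02 in branchial muscle-like to 4.38 in mesenchyme-like cells, where it had 23 UMIs in control and 275 in the mutant. Grb14 was lower in EC-like, cardiomyocyte-like (212 and 125 CPM), neuron-like and epithelium-like cells but higher in branchial muscle-like cells (1.15 and 6.05 CPM). Igf2 was higher in epithelium-like cells, 368 and 614 CPM (0.74, 0.65 to 0.83), and lower in neuron-like cells, 139 and 75.8 CPM (-0.87, -1.04 to -0.70), and in cardiomyocyte-like cells, 917 and 595 CPM (-0.62, -0.74 to -0.50). Pathway genes counted as higher and lower were 3 and 2 of 21 in EC-like cells, against 11.6% and 12.7% of all genes. They were 2 and 5 of 25 in mesenchyme-like (10.9% and 8.79%) and 7 and 0 of 25 in branchial muscle-like cells (13.1% and 7.94%). Cardiomyocyte-like cells had 2 and 3 of 15 (11.8% and 16.0%) and neuron-like cells 6 and 7 of 25 (5.94% and 15.3%). In epithelium-like cells the counts were 5 and 2 of 22 (8.52% and 9.33%), and in mesothelium-like cells 7 and 3 of 19 (20.4% and 12.6%).

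The genes whose levels followed each member most closely over the 14 sums of class and library, among 4086 genes, are given by Pearson's r of log2(CPM + 1). The sums share 2 libraries, so these values describe the pattern over classes only. Igf1 was most like Bgn (0.95), Fbln5 (0.95) and Eva1b (0.94), and Igfbp7 most like Fbln5 (0.93), Slc9a3r2 (0.93) and Sparc (0.93), so both lists held Fbln5, an elastic fibre protein. Igfbp3 was most like Fzd4 (0.95), a Wnt and norrin receptor of endothelium, then Tpx2 (0.88) and Arhgap28 (0.87). Igfbp2 was most like Nudt21 (0.87), Pdgfc (0.83) and Cdk4 (0.83). Igfbp4 was most like Ppp1r15a (0.95), Mmp14 (0.92) and Sh3gl1 (0.92), and Igfbp5 most like Egfr (0.93), Gpc3 (0.92) and Mlec (0.90). Igf1r was most like Zfp704 (0.94), Hs2st1 (0.94) and mt-Nd2 (0.94), and Insr most like Mbd5 (0.95), Lcorl (0.95) and Hmbox1 (0.94). Irs1 was most like Smim7 (0.90), Ddr1 (0.89) and Parm1 (0.87), and Irs2 most like Clstn2 (0.94), Ssbp2 (0.94) and Tenm4 (0.94).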

How the data were processed

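Droplet libraries (5′ chemistry) were aligned and counted by the authors with Cell Ranger 7.1.0 on the mouse genome build mm10, and the deposited values are whole-number counts of UMIs per gene and cell barcode. The annotation release and whether intronic reads were counted are not given in the sources used here. The authors' cell filter was applied again. Cells were integrated with Seurat 5.3.0 (canonical correlation, cell-cycle scores regressed, 2000 variable genes without 49 genes that held the members and the pathway list, 30 components, 20 neighbours), and the lowest resolution in steps that gave at least 15 clusters was 0.3. A cluster was named "X-like" from at least 3 markers raised 2-fold, and left unnamed where at least 2 of its 10 leading genes marked another class. Scrublet (scanpy 1.11.5) marked 0 control cells and 1 mutant cell at its own threshold, too few for a working call, so doublets were kept, and removal of the highest scores (0.8% per 1000 cells) was an alternative. Female-like cells had Xist and no Y-linked UMI, male-like cells the reverse.

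Counts were summed per class and library and given as CPM with exact Poisson 95% intervals. Log2 ratios have conditional exact binomial 95% intervals. Their coverage was checked only on simulated Poisson counts, which is the model the intervals assume. That check cannot show coverage where few cells hold most UMIs of a gene. With 1 library per genotype no p-value is given. A count of 3 sets the floor. Thinning to 5000 UMIs left out 61 control and 173 mutant cells. TMM factors came from edgeR 4.0.16 and were used for scaling only. The genes named were the 10 members, pathway genes past 1.5-fold in EC-like cells with at least 50 UMIs, the 3 genes most like each member, and Pik3ca, Xist and Y-linked genes as checks. The other genes named are leading genes of clusters, and Stc2, Grb14 and Igf2 outside EC-like cells were chosen after their values were seen. The members and lists were chosen with earlier results of these data known. Gene positions came from GENCODE M21 (GRCm38).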

Additional observations from a re-analysis of the deposited data

Results flagged for a closer look

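For 8 of the 10 genes, classes past 1.5-fold with intervals that excluded 0 pointed in opposite directions. By the same rule 12.3% of the 13777 genes with at least 50 UMIs in at least 2 classes did so, and 11.9% of the 10551 genes with that many UMIs in at least 5 classes, the fewest for any of the 10. The 10 genes were chosen with earlier results of these data known, so the count is not independent of the data. These shares are also not matched for level, and intervals are narrower for genes with more UMIs. Only Igfbp2 and Igfbp5 kept a class in each direction past 1.5-fold under every other way of processing. Each class rests on 1 library per genotype, and the difference between classes was not tested. Igf1 was higher in the mutant in EC-like (log2 ratio 0.77) and epithelium-like cells (1.92) and lower in mesenchyme-like (-0.98), neuron-like (-2.22) and mesothelium-like cells (-1.73). Igf1r was higher in mesothelium-like (0.90) and lower in cardiomyocyte-like cells (-0.86), as was Insr (1.14 and -1.28).

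Igfbp2 was higher in EC-like (1.25), mesenchyme-like (1.41), branchial muscle-like (1.02), cardiomyocyte-like (0.60) and epithelium-like cells (1.49) and lower in mesothelium-like cells (-1.32). Igfbp3 was higher in EC-like (1.45) and mesenchyme-like (0.81) and lower in mesothelium-like cells (-1.06). Igfbp4 was higher in branchial muscle-like (0.94) and neuron-like (0.90) and lower in mesothelium-like cells (-0.89). Igfbp5 was higher in mesenchyme-like (0.66), epithelium-like (1.43) and mesothelium-like (0.72) and lower in neuron-like cells (-1.78). Igfbp7 was higher in mesenchyme-like cells (0.89) and lower in EC-like (-1.63), branchial muscle-like (-1.27), epithelium-like (-1.15) and mesothelium-like cells (-1.88).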

How the results depend on the processing

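No paired analysis was possible because each genotype had 1 library. Over 64 log2 ratios and 13 alternatives, 574 of 721 values stayed within the counting interval, 143 moved outside it and 4 reversed a ratio that had passed 1.5-fold with an interval excluding 0. Ratios without a finite value were left out of all these counts. They were Irs1 (0 control UMIs) and Igfbp3 (0 mutant UMIs) in female-like cardiomyocyte-like cells. Both pointed opposite to the values in all cells (-0.64 and 0.47). In all, 46 values, in 20 ratios, had the opposite sign, and the other 42 were of ratios that had not passed both criteria, such as Igfbp5 in EC-like cells and Igfbp4 in cardiomyocyte-like cells (-0.60, but 0.53 with classes from marker counts). The 4 reversals were Igfbp7 in mesenchyme-like cells at resolution 0.8 (-0.58) and in cluster c0 alone (-1.40, chosen after seeing the data), Igf1 in epithelium-like cells in female-like cells only (-0.41) and Igfbp7 in epithelium-like cells in G1 cells only (0.36). The causes were not tested. Of the 32 ratios past both criteria, 17 stayed past 1.5-fold under every alternative run. Besides those already named, the other 15 include Igf1r (-0.30) and Igfbp2 (0.13) in cardiomyocyte-like cells, Irs2 in branchial muscle-like cells (0.38) and Igfbp3 (0.32) and Igfbp5 (0.22) in mesenchyme-like cells, each at its value nearest to 0.

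In EC-like cells, Igf1 (0.50 to 1.01), Igfbp2 (1.11 to 1.37), Igfbp3 (1.10 to 1.57) and Igfbp7 (-1.82 to -1.26) kept their direction under every alternative run, but Igf1 fell inside 1.5-fold in G1 cells. Values outside the counting interval were as follows. Female-like cells gave 1.01 for Igf1, 1.10 for Igfbp3, -0.16 for Igfbp4, -0.38 for Igfbp5 and -1.40 for Igfbp7. G1 cells gave 0.50 for Igf1, -0.19 for Insr, 2.79 for Irs2, 1.10 for Igfbp3, -0.51 for Igfbp4, -0.41 for Igfbp5 and -1.81 for Igfbp7. Thinned cells gave 0.94 for Igf1, -0.36 for Igf1r, -0.24 for Igfbp4 and -1.37 for Igfbp7. Without cluster e1 (chosen after seeing the data), the values were 0.93 for Igf1, 1.18 for Igfbp3, -0.18 for Igfbp4, -0.048 for Igfbp5 and -1.82 for Igfbp7. TMM scaling, which raised all EC-like ratios by 0.12, gave 1.57 for Igfbp3 and -0.19 for Igfbp4, and median-ratio scaling gave 1.55 and -0.21. Resolution 0.8 gave -0.062 for Igfbp5 and -1.26 for Igfbp7, and the mean over cells -1.48 for Igfbp7. Genes at least 1.5-fold lower numbered 2, not 1, without high-scoring doublets, in thinned cells and in female-like cells. TMM raised ratios by 0.15 in cardiomyocyte-like and 0.11 in neuron-like cells and changed them by -0.12 in mesothelium-like cells.

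Irs1 and Irs2 had few UMIs in EC-like cells, and 3 of the 10 genes had fewer than 50 UMIs in cardiomyocyte-like cells. Genotype and the sex makeup of the pools cannot be told apart in the unmatched values.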

Other observations

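Smooth muscle or mural-like cells (38 control and 25 mutant cells, too few to compare) had the highest Igf1 of any named cluster, 1288 CPM (1209 to 1371) in control and 1107 CPM (1012 to 1208) in the mutant. The same cells had little Igfbp2 (7.78 and 39.8 CPM), Igfbp3 (6.49 and 64.1 CPM) and Igfbp7 (33.7 and 4.42 CPM). Neural crest or Schwann precursor-like cells (52 and 23) had almost no Igf1, with 2 and 3 UMIs, but had 611 CPM of Igfbp5 in control and 164 CPM in the mutant, and 92.0 and 16.6 CPM of Igfbp7. Hepatoblast-like cells were found in the mutant library only (47 cells), with 433 CPM of Igfbp4, 62.1 CPM of Igfbp2 and 14.3 CPM of Igf1r. The tissue is described as above the liver for both libraries. The part of dissection in the comparisons between libraries was not tested. Summed hepatoblast markers were higher in the mutant in every class compared. They stood at 2.78 and 24.0 CPM in EC-like, 2.57 and 30.8 CPM in mesenchyme-like and 0.766 and 22.1 CPM in branchial muscle-like cells. The part of free RNA from such cells in the values of the other classes was not tested. In an unnamed cluster that mixed macrophage and erythroid genes (174 and 176 cells), Igfbp4 stood at 371 and 195 CPM and Igf1 at 45.5 and 13.01 CPM.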
